A study of Mus musculus with 15 samples.

Results

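The 10 genes described here encode subunits of Polycomb repressive complex 1 (PRC1) that are not among the PRC1 and PRC2 genes drawn in the study's supplementary figure. They were chosen by symbol: every transcription unit of the deposited expression table whose gene names include Pcgf1, Pcgf2, Pcgf3, Pcgf5, Pcgf6, Kdm2b, Cbx6, Cbx7, L3mbtl2 or Auts2 was kept. This gave 19 units of 65522 in the table. A transcription unit is a row that the assembly software built from overlapping transcripts, and 6 of the 10 genes carry more than 1 such row. Units of a gene are numbered here by their mean level over the 15 libraries, unit 1 being the most abundant.

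Poly(A)-selected RNA of 15 cultures of female C57BL/6 mouse embryonic fibroblasts was sequenced, each population having been derived from a single embryo. WT cells were compared with cells that lack CIZ1, a nuclear matrix protein that gathers at the inactive X chromosome, because of a homozygous gene trap inserted downstream of exon 1 of its gene. Primary cells, taken before passage 5, were compared with the culture-adapted lines that grew out of the same populations. The 4 main groups held 3 libraries each. WT primary and WT adapted cells were both made from the embryos named E13.8, E13.1 and E14.4. CIZ1 null primary and CIZ1 null adapted cells were both made from those named E13.15, E13.17 and E14.2. These are names of single embryos and do not give an age. Cells of E13.17 also carry a doxycycline-inducible GFP-CIZ1 transgene, which was not induced in these groups. In a smaller comparison, 2 primary null cultures with this transgene were left untreated, the primary E13.17 culture being one of them, and 2 were given 5 to 10 µg/ml doxycycline. The study describes induction in 2 null populations, E13.17 and another at a different passage, examined a day after induction.

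PRC1 places a single ubiquitin on histone H2A through RING1 or RNF2, and each complex holds one of several PCGF proteins that sets its identity. Canonical complexes pair PCGF2 or PCGF4 (BMI1) with a CBX protein that reads trimethylated H3K27 and with a PHC protein. Variant complexes pair PCGF1, PCGF3, PCGF5 or PCGF6, and in part PCGF2 and PCGF4, with RYBP or YAF2 and with partners such as KDM2B, L3MBTL2 or AUTS2. They carry much of the H2A ubiquitylation in the cell, and complexes with PCGF3 and PCGF5 start Polycomb recruitment by Xist RNA. By these definitions 3 of the 10 genes, Pcgf2, Cbx6 and Cbx7, encode subunits known mainly from canonical complexes, so the set is described as PRC1 subunits rather than as variant subunits only.

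The targeted gene was checked first. Ciz1 ranged from 18.7 to 25.0 FPKM (fragments per kilobase of transcript, scaled to the mapped fragments of the library) in WT libraries, was at or below 0.72 FPKM in the untreated null libraries, and reached 191 and 296 FPKM after doxycycline. All 8 fibroblast markers examined, among them Col1a1, Vim and Thy1, were expressed in the primary cells of the main groups, with a summed level of 9960 to 10915 FPKM. In adapted lines the sum was 2198 to 6453 FPKM, and Thy1 was listed at 0 in the adapted E13.8 line and at 0.21 FPKM in the adapted E13.17 line. Of 14 fibroblast marker units 0 were called by limma in WT cells, with 5 at an unadjusted p under 0.05, and 4 were lower in adapted null cells. Of all units 9.55% were called in WT cells, 30.6% had such a p there, and 4.86% were called in null cells. The 14 markers of other cell types summed to at most 13.2 FPKM in any library. In the library where each was highest, Cd68 reached 8.86, Krt8 8.06, Krt18 3.30, Sox2 3.09 and Adgre1 2.48 FPKM. The rest stayed under 1 FPKM, and the muscle factor Myod1 and the pluripotency factor Pou5f1 were listed at 0 in all libraries. Depth, estimated relative to the primary E14.4 library from values under 0.3 FPKM, was at most 1.63 times that library in the 6 primary libraries of the main groups and 0.54 to 1.18 times it in the adapted ones.

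The members lie on 5 chromosomes in the mouse genome GRCm38 (GENCODE M21 annotation), all as protein-coding genes. Chromosome 5 holds Pcgf3 (chr5:108461232-108506976, plus strand), Kdm2b (chr5:122870665-122989823, minus) and Auts2 (chr5:131437333-132543344, minus, the longest at 1106.0 kb). Chromosome 15 holds Cbx6 (chr15:79823896-79834688, minus), Cbx7 (chr15:79915807-79971119, minus, 81.1 kb away) and L3mbtl2 (chr15:81663889-81688315, plus). Pcgf5 (chr19:36348309-36460970, plus) and Pcgf6 (chr19:47033617-47050906, minus) share chromosome 19, Pcgf1 (chr6:83077869-83080855, plus) is the shortest at 3.0 kb, and Pcgf2 lies at chr11:97688823-97700497 on the minus strand. The RNA kit did not mark strand as far as the sources used here state, so units of 1 gene at 1 locus, or a unit and a neighbour on the other strand, may share reads. The strand of a unit is not listed, so a unit may be antisense to the gene it is named for. For its splice variants the study removed those of the opposite strand, whereas all units were kept here. The Cbx6 unit also carries the names Npcd and Nptxr, and the Kdm2b unit those of Gm2479 and RP23-214I6.5, so their values can include reads of these neighbours. Pcgf1 sits in a merged locus of 12 units, and the 2 Auts2 units in one of 28.

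KDM2B tethers the PCGF1 complex to unmethylated CpG dinucleotides, which are dense at many gene starts. The RefSeq promoter table (GRCm38.p6, 250 bases before to 50 after a start) held 13 windows for 8 of the 10 genes; Pcgf1 and Auts2 had no entry. The letters CG, which read the same on both strands, occurred 5 to 49 times per 300-base window, with a median of 28. Of these windows 12, or 92.3%, held at least 10 CG, against 43.5% of all 32851 windows in the table. The bases before the start of 4 members are shown in lower case with each CG in capitals: the 3 PCGF genes whose level passed a test between primary and adapted cells, and Cbx7, the member with the lowest level in the cells. Each run stops where the first exon annotated by GENCODE begins, and is written 5′ to 3′ on the strand of its gene.
Pcgf3, chr5:108461082-108461231, plus strand: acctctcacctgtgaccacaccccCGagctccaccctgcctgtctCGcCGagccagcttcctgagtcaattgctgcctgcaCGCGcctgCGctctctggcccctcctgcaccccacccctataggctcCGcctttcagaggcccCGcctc
Pcgf5, chr19:36348159-36348308, plus strand: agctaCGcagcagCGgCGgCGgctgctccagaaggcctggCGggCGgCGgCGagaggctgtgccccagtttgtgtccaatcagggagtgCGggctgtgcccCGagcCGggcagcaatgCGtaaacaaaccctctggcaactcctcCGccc
Pcgf6, chr19:47050907-47051056, minus strand: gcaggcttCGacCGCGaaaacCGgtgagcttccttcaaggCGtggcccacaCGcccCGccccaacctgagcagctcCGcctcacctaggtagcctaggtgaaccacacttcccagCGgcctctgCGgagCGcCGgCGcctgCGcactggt
Cbx7, chr15:79932769-79932896, minus strand: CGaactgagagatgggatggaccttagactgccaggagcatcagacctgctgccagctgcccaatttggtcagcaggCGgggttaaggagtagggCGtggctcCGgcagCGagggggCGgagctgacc
These stretches held 8 CG in Pcgf3, 13 in Pcgf5, 14 in Pcgf6 and 6 in the shorter Cbx7 stretch of 128 bases. The Cbx7 stretch lies inside the span of its GENCODE gene, which also has a start farther upstream.

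In WT primary fibroblasts the levels of the 10 genes, each taken by its unit 1, spanned from 28.6 FPKM for Pcgf3 to 0.16 FPKM for Cbx7. Pcgf3, the PCGF subunit of a complex with AUTS2 or FBRS, stood first at 28.6 ± 1.5 FPKM (SD, n = 3), with no overlap with Cbx6 at 16.6 ± 0.70. Cbx6, a chromodomain subunit of canonical PRC1, did not overlap with Pcgf2 at 12.4 ± 0.65, nor Pcgf2 with Kdm2b at 9.42 ± 0.96. From Kdm2b down through Pcgf1, Pcgf5, Pcgf6, L3mbtl2 and Auts2 each gene overlapped with the next, and Auts2 at 3.32 ± 1.73 did not overlap with Cbx7. The place of Pcgf5 rests on a unit listed at 0 to 12.6 FPKM in these libraries, and its unit 2 had a mean of 4.86.

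In CIZ1 null primary cells Pcgf3, Cbx6 and Pcgf2 again had the 3 highest means, at 21.8, 18.6 and 14.4 FPKM, but Pcgf3 overlapped with Cbx6 and Cbx6 with Pcgf2. In both adapted groups Cbx6 had the highest mean (26.7 ± 13.3 in WT and 23.5 ± 2.6 in null lines, n = 3 each), followed by Pcgf3, and these 2 overlapped. Cbx7 had the lowest mean in all 4 groups. As FPKM is scaled by transcript length these levels can be set side by side, though length is estimated by the assembly and several genes have further units. The Cbx6 unit also carries the names Npcd and Nptxr, and the Kdm2b unit other names as well. Their places in the order may therefore rest in part on reads of these neighbours.

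**Figure D1:**
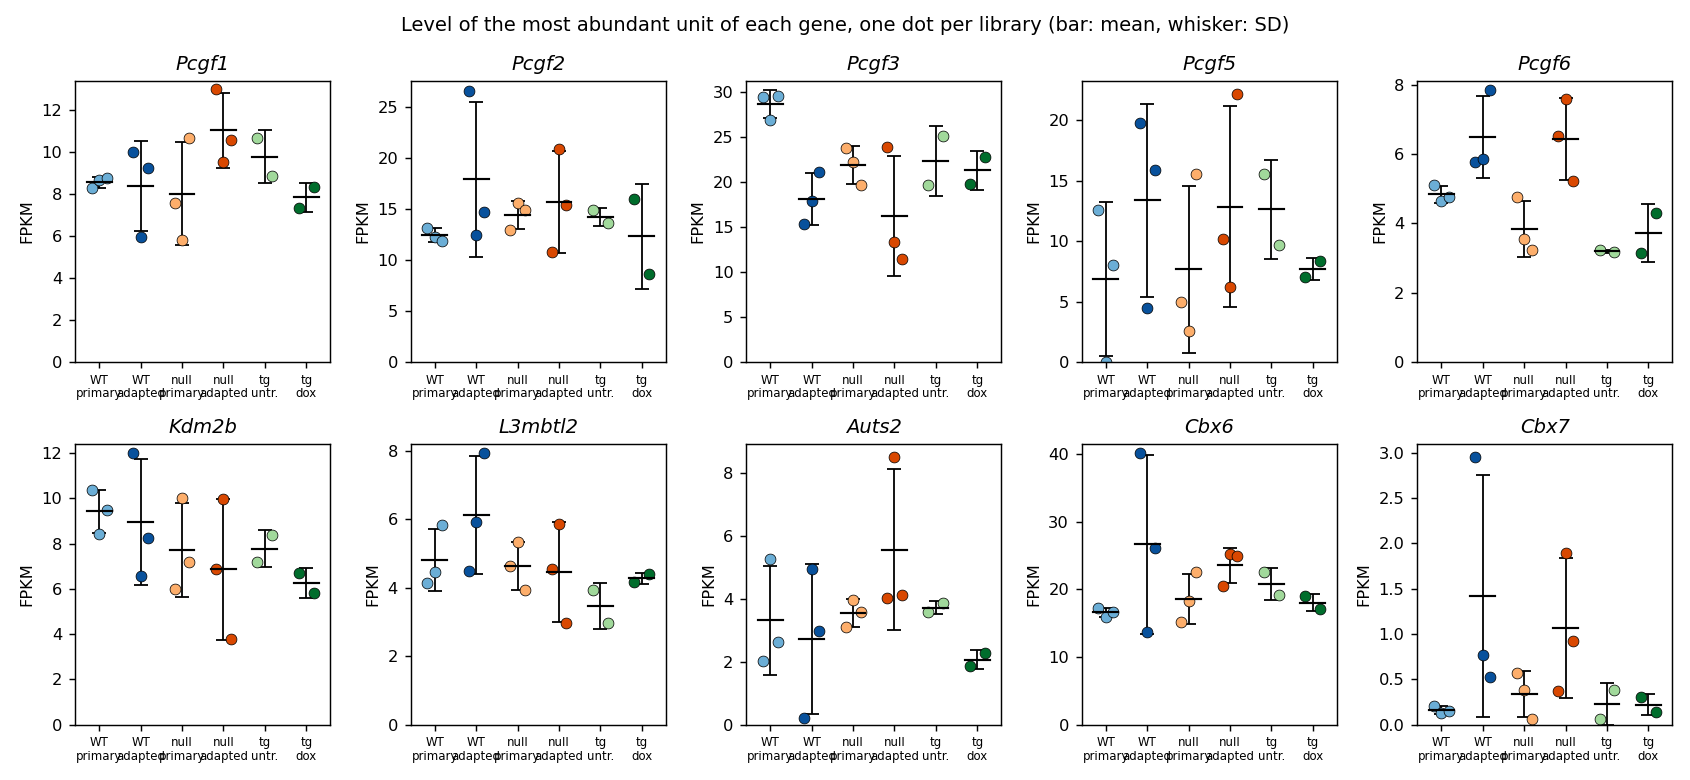
Level in FPKM of the most abundant unit of each of the 10 genes in every library, by group (WT and CIZ1 null, primary and adapted; tg untr. and tg dox, transgenic null cells without and with doxycycline). Dots are libraries, horizontal bars means and whiskers SD; the primary E13.17 library appears in null primary and in tg untr., Pcgf3 is above 26 FPKM in each WT primary library and below it elsewhere, and Cbx7 stays under 3 FPKM.

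The question asked first was whether the subunits changed as fibroblasts adapted to culture. In each genotype alone no member unit passed the test, whereas their average over both genotypes, a comparison added after the data were seen, had 2 units higher (Pcgf6 and Pcgf5) and 1 lower (Pcgf3) in adapted cells. All fits used limma on log2(FPKM + 1), over all units with a mean of at least 1 FPKM, and a unit was called at a Benjamini-Hochberg adjusted p under 0.05. The scale understates the change of units near 1 FPKM. Of the 19 member units 16 entered the adaptation tests, while the Cbx7 unit, Pcgf5 unit 3 and Pcgf6 unit 4 fell under the filter.

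In WT cells 0 of 16 member units were called by limma, against 9.55% of all 19919 units tested, and 2 of 16 had an unadjusted p under 0.05, against 30.6%. In CIZ1 null cells the counts were 0 of 16, against 4.86% of 20044 units, and 2 of 16, against 29.3%. With 16 units, counts of this size are near or below the background and show no concentration of change among the members. The median difference of the members was 0.23 in WT and 0.22 in null cells on the log2 scale, where that of all units was -0.05 and -0.04. Quantile normalization moved the median of all units by 0.11 in WT cells and 0.10 over both genotypes, and the median of the members to 0.25 and 0.22. The margin of a member's 95% interval on either side had a median of 0.61 in WT and 0.65 in null cells. For a typical member, a difference smaller than this does not reach an unadjusted p under 0.05. A call by adjusted p needs a larger difference still.

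Averaged over both genotypes, 3 of 16 member units were called, or 18.8%, against 32.2% of 20046 units; 4 of 16 had an unadjusted p under 0.05, against 43.8%. Of all called units 42.3% were higher in adapted cells, and 55.8% under quantile normalization. The share among the members was thus below the background. The fibroblast markers and the depth described above moved with adaptation as well, and their part in these differences was not tested. In bulk RNA a lower level in every cell and fewer cells that express a gene cannot be told apart.

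Pcgf6 is the PCGF subunit of the complex that also holds L3MBTL2, MGA and E2F6 and that acts on germline genes. Its unit 1 (XLOC_028217) measured 5.11, 4.65 and 4.76 FPKM in the WT primary cells of E14.4, of E13.1 and of E13.8, and 7.87, 5.77 and 5.87 in their adapted lines. In null cells (E14.2, then E13.15, then E13.17) it measured 4.76, 3.54 and 3.22 FPKM before and 5.22, 6.52 and 7.59 after adaptation. Every adapted line was above every primary culture of its genotype, and all 6 embryos moved upwards, by 0.11 to 1.03 on the log2 scale.

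The average adaptation effect on Pcgf6 unit 1 was 0.49 ± 0.13 (SE), with a 95% interval of 0.19 to 0.78 and a limma adjusted p of 0.0184. With the embryo as a block the adjusted p was 0.0544, which ends the call. In single genotypes the effect was 0.35 (adjusted p = 0.24) in WT and 0.62 (adjusted p = 0.12) in null cells by limma, and the difference between genotypes, 0.27 with an interval of -0.32 to 0.86, did not pass the test. Unit 2 (XLOC_027384), whose level followed unit 1 with r = 0.82 over the 15 libraries, was higher in the adapted line of 5 of 6 embryos.

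Pcgf6 unit 2 showed the only member value with an unadjusted p under 0.05 in the test of whether adaptation differed between genotypes. It went from 2.31, 3.16 and 1.22 FPKM to 4.09, 3.73 and 5.79 in null cells of E14.2, of E13.15 and of E13.17. In WT cells of E14.4, of E13.1 and of E13.8 it stayed between 3.27 and 3.999 FPKM throughout. The null minus WT difference was 0.73 on the log2 scale (unadjusted p = 0.0495, limma adjusted p = 0.996), and 1 of 16 members at this level compares with 4.63% of all units. By adjusted p in limma 0 of 16 members and 0% of 20046 units were called for this difference.

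Pcgf5, the paralogue of PCGF3 and a subunit of the same AUTS2 complexes, was represented by 3 units that did not follow each other closely. Unit 2 (XLOC_027226) measured 6.56, 4.46 and 3.58 FPKM in WT primary cells of E14.4, of E13.1 and of E13.8, and 7.79, 9.61 and 7.88 in the adapted lines. In null cells (E14.2, then E13.15, then E13.17) it measured 3.63, 5.43 and 2.92 FPKM in primary cells and 4.71, 6.40 and 4.11 after adaptation. The WT groups did not overlap while the null groups did, and all 6 embryos moved upwards.

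The average effect on Pcgf5 unit 2 was 0.50 ± 0.17 (SE; interval 0.12 to 0.89, limma adjusted p = 0.0479), and the call was lost when any of 9 of the 12 libraries was left out (adjusted p up to 0.114). The call was also lost with a pseudocount of 0.1, with no filter, with a minimum of 5 FPKM and with array weights (adjusted p = 0.0513, 0.0778, 0.0607 and 0.0902). When single libraries were left out, it held without the primary E14.4, the primary E13.15 or the adapted E13.17 library. In WT cells alone the effect was 0.71 (adjusted p = 0.098 by limma).

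Unit 1 of Pcgf5 (XLOC_028045) varied widely within groups. It was listed at 0 in the WT primary library from E13.1, at 12.6 and 8.01 FPKM in those from E14.4 and E13.8, and at 2.53 to 15.6 FPKM in null primary cells. Its interval for the average effect ran from -0.42 to 2.56, and it followed unit 2 with r = 0.21 only. A listed 0 in such a table can be a failed estimate. Unit 3 (XLOC_028046), below the filter, lay at 0.27 to 0.47 FPKM in the 6 primary libraries and at 0.84 to 1.77 in the 6 adapted ones, which did not overlap. With no filter its average effect was 0.62 ± 0.11 (SE; limma adjusted p = 0.00514).

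Pcgf3 moved the other way. Its unit 1 (XLOC_042396) measured 29.5, 26.9 and 29.6 FPKM in WT primary cells of E14.4, of E13.1 and of E13.8 and 21.1, 15.3 and 17.9 in the adapted lines, with no overlap. In null cells (E14.2, then E13.15, then E13.17) it measured 23.8, 22.2 and 19.6 FPKM before and 11.4, 23.9 and 13.3 after adaptation. The adapted E13.15 line was above all 3 null primary cultures, so these groups overlapped, and it was lower in the adapted line of 5 of 6 embryos.

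On average Pcgf3 unit 1 fell by 0.56 on the log2 scale (SE 0.17, interval -0.94 to -0.18, limma adjusted p = 0.0296), with an adjusted p of 0.0454 when the embryo was a block. Quantile normalization ended the call (-0.43, adjusted p = 0.0724), and so did leaving out any of 9 of the 12 libraries, all but the primary E13.17, the adapted E14.4 and the adapted E13.15 libraries, with an adjusted p of at most 0.0670. In WT cells alone it fell by 0.65 (SE 0.18, limma adjusted p = 0.0659). Unit 2 (XLOC_044531), which followed unit 1 with r = 0.89, was lower in the same 5 embryos, with an average effect of -0.25 (adjusted p = 0.19 by limma).

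**Figure D2:**
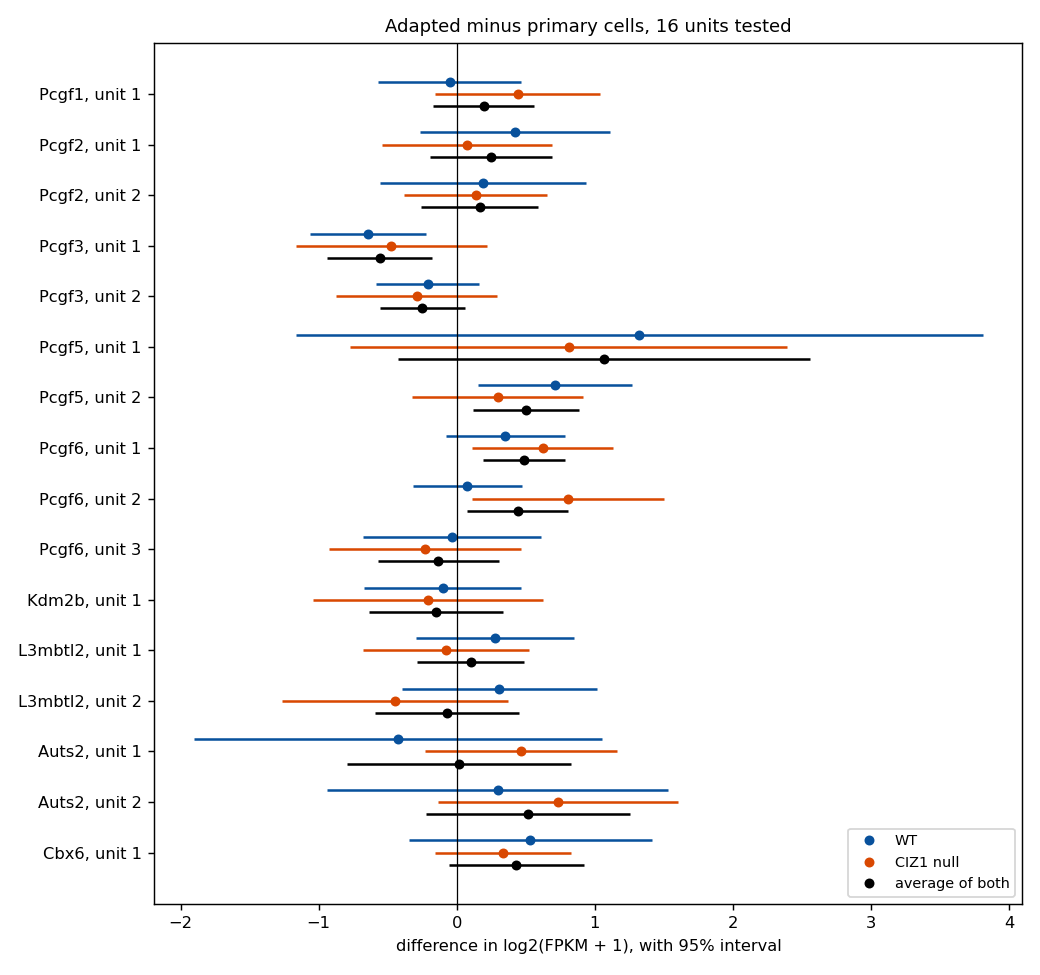
Difference in log2(FPKM + 1) between adapted and primary cells for the 16 member units tested, with 95% intervals, in WT cells, in CIZ1 null cells and as the average of both. The average intervals of Pcgf3 unit 1, Pcgf5 unit 2 and Pcgf6 units 1 and 2 leave out 0, and those of the other 12 units include it.

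Counted over single embryos, 2 of 16 tested member units were higher in the adapted line of all 6 embryos, against 14.4% of all units, and 0 of 16 were lower in all 6, against 18.5%. The 2 were Pcgf6 unit 1 and Pcgf5 unit 2, and below the filter Pcgf5 unit 3 and Pcgf6 unit 4 were also higher in all 6. Groups did not overlap for 4 of 16 member units in WT cells (background 38.7%) and for 4 of 16 in null cells (background 37.1%). In WT cells these were Pcgf5 unit 2 and Pcgf6 unit 1, higher when adapted, and both Pcgf3 units, lower. In null cells they were Pcgf6 units 1 and 2 and both Auts2 units, all higher when adapted.

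**Figure D3:**
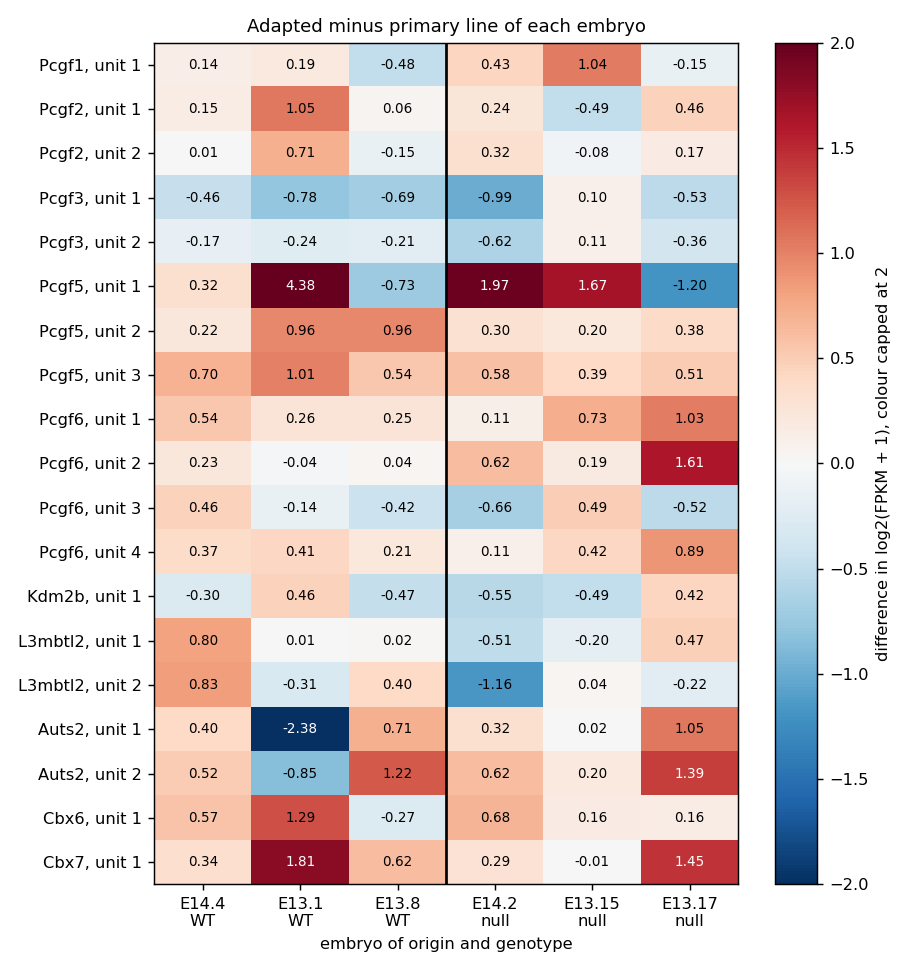
Difference in log2(FPKM + 1) between the adapted line and the primary culture of each embryo (columns, WT left and CIZ1 null right of the line) for the 19 member units (rows), with the value printed in each cell. Pcgf5 units 2 and 3 and Pcgf6 units 1 and 4 are above 0 in all 6 columns, and the E13.1 column holds the lowest value for Auts2 (-2.38) and the highest for Cbx7 (1.81).

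Pcgf1, the PCGF subunit of a complex with KDM2B and BCOR, and Pcgf2 (MEL18), a paralogue of BMI1, gave no call. Pcgf1 measured 8.28 to 8.75 FPKM in WT primary, 5.97 to 10.0 in WT adapted, 5.81 to 10.7 in null primary and 9.53 to 13.02 in null adapted cells, and its average adaptation effect was 0.19 (interval -0.17 to 0.56). Pcgf2 unit 1 measured 11.9 to 13.2 FPKM in WT primary and 12.9 to 15.6 in null primary cells. In adapted lines it spread from 12.4 to 26.6 FPKM in WT and from 10.8 to 20.9 in null cells, with an average effect of 0.25 (interval -0.19 to 0.69). All ranges of primary and adapted cells overlapped for both genes, and unit 2 of Pcgf2 followed unit 1 with r = 0.85.

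Of the partner genes, Kdm2b, an H3K36 demethylase with a CpG-binding zinc finger, measured 10.4, 8.43 and 9.49 FPKM in WT primary cells of E14.4, of E13.1 and of E13.8 and 8.25, 12.01 and 6.57 in the adapted lines. In null cells it ranged from 5.98 to 10.0 FPKM before and from 3.77 to 9.98 after adaptation. It moved up in 2 embryos and down in 4, and its average effect was -0.15 (interval -0.64 to 0.33). L3mbtl2, an MBT-repeat protein of the PCGF6 complex, ranged from 2.97 to 7.95 FPKM over the 12 libraries in unit 1, with an average effect of 0.10 (interval -0.28 to 0.48). Neither gene separated primary from adapted cells.

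Auts2, a partner of PCGF3 and PCGF5 best known from neurons, ranged from 0.21 to 8.52 FPKM over the adapted lines. Unit 1 (XLOC_044946) measured 2.03, 5.28 and 2.64 FPKM in WT primary cells of E14.4, of E13.1 and of E13.8, and 2.99, 0.21 and 4.95 in the adapted lines. In null cells (E14.2, then E13.15, then E13.17) it was at 3.10, 3.97 and 3.59 FPKM in primary cells and 4.13, 4.03 and 8.52 after adaptation. The adapted E13.1 line alone was near 0, and the other 5 embryos moved upwards.

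Unit 2 of Auts2 (XLOC_042854) was also lowest in the adapted E13.1 line, with 0.15 FPKM there and 2.13 to 7.20 in the other 5 adapted lines, and followed unit 1 with r = 0.84. In WT cells the adaptation effect on unit 1 was -0.43 (interval -1.90 to 1.05, limma adjusted p = 0.68), and without the adapted E13.1 library it was 0.25. For unit 2 it was 0.30, and 0.89 without that library (adjusted p = 0.0755 by limma). The direction for unit 1 in WT cells therefore rested on 1 line.

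The chromodomain genes Cbx6 and Cbx7, neighbours on chromosome 15, had no call in either genotype. Cbx6 measured 17.2, 15.9 and 16.6 FPKM in WT primary cells of E14.4, of E13.1 and of E13.8 and 26.1, 40.2 and 13.7 in the adapted lines. In null cells it was at 15.2 to 22.5 FPKM before and 20.5 to 25.2 after adaptation. It was higher in the adapted line of 5 of 6 embryos, and its average effect of 0.43 (interval -0.06 to 0.92, limma adjusted p = 0.158) passed the test, among the alternatives run, only without the adapted E13.8 library (0.63, adjusted p = 0.0143).

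Cbx7, which in other fibroblasts is known as a repressor of the Ink4/Arf locus, was barely detected. It measured 0.21, 0.13 and 0.15 FPKM in WT primary cells of E14.4, of E13.1 and of E13.8 and 0.53, 2.95 and 0.77 in the adapted lines. In null cells (E14.2, then E13.15, then E13.17) it measured 0.57, 0.39 and 0.06 FPKM before and 0.92, 0.37 and 1.90 after adaptation. The WT groups did not overlap, the null groups did, and with no filter its average effect was 0.75 (interval 0.18 to 1.32, limma adjusted p = 0.0742). Over the 15 libraries Cbx6 and Cbx7 correlated with r = 0.70, a value that shares libraries and groups.

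The adapted lines differed among themselves more than the primary cultures did. In WT cells 13 of 16 member units had a larger SD of log2(FPKM + 1) among adapted than among primary libraries, with median SDs of 0.37 and 0.12. Among all units 77.6% did so, with medians of 0.36 and 0.19. In null cells it was 10 of 16 member units, with median SDs of 0.42 and 0.20, and 72.3% of all units. The adapted E13.1 line was the highest or the lowest of its 3 lines for 15 of 16 member units, against 71.8% of all units: it had the most Cbx6, Cbx7, Pcgf2 and Kdm2b and the least Auts2.

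The next question was whether the subunits depended on CIZ1. In primary cells 0 of 16 member units were called between null and WT libraries by limma, against 0.00511% of 19566 units, which is 1 unit. An unadjusted p under 0.05 was reached by 2 of 16, against 6.26%. These were Pcgf3 unit 1, at 19.6 to 23.8 FPKM in null and 26.9 to 29.6 in WT cells, and Auts2 unit 2, at 1.73 to 2.13 in null and 1.02 to 1.31 in WT cells.

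Pcgf3 unit 1 differed by -0.38 on the log2 scale (interval -0.67 to -0.09, unadjusted p = 0.0170, limma adjusted p = 0.72). Auts2 unit 2 differed by 0.44 (interval 0.05 to 0.83, unadjusted p = 0.031, limma adjusted p = 0.78). With Pcgf6 unit 2, at 1.22 to 3.16 FPKM in null and 3.27 to 3.44 in WT cells, 3 of 16 members had groups that did not overlap, against 11.9% of all units. The WT and null primary libraries used here are also the baselines of the adaptation comparisons above, so a high or low primary group enters both. The markers of other cell types summed to 11.2 to 13.2 FPKM in null and to 3.20 to 8.04 in WT primary cells, and their part in these differences was not tested.

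In adapted cells 18 member units were tested, and 0 were called by limma, against 0.00501% of 19976 units, again 1 unit. An unadjusted p under 0.05 was reached by 1 of 18, against 4.02%, and 1 of 18 had groups that did not overlap, against 8.28%. Both were Pcgf5 unit 2, at 4.11 to 6.40 FPKM in null and 7.79 to 9.61 in WT lines, a difference of -0.65 (interval -1.21 to -0.09, unadjusted p = 0.030, limma adjusted p = 0.998). In primary cells the same unit differed by -0.23 (interval -0.84 to 0.38).

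The differences on loss of CIZ1 ran from -0.47 to 0.50 in primary and from -0.65 to 1.03 in adapted cells, the highest being Auts2 unit 1 in adapted cells, where the WT group holds the E13.1 line near 0. The margins of the 95% intervals had a median of 0.42 in primary and 0.83 in adapted cells. These bounds leave room for changes of that size in single subunits.

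**Figure D4:**
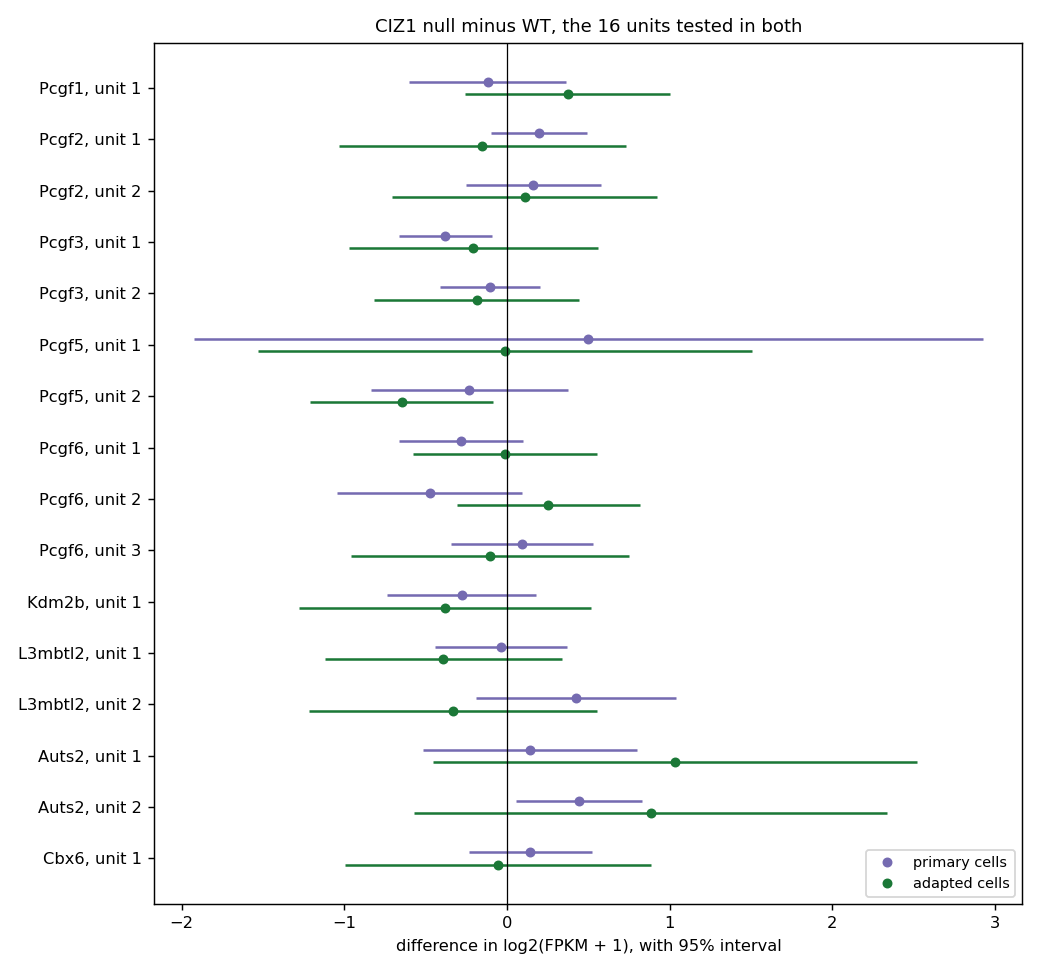
Difference in log2(FPKM + 1) between CIZ1 null and WT cells, with 95% intervals, for the 16 member units tested in both primary and adapted cells. In primary cells the intervals of Pcgf3 unit 1 and Auts2 unit 2 leave out 0, and in adapted cells that of Pcgf5 unit 2.

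Doxycycline, which brought Ciz1 to many times the WT level, was followed by no member call: 0 of 16 units by limma, against 0.0101% of 19768 units, and 0 of 16 at an unadjusted p under 0.05, against 1.76%. The member nearest to the threshold was Auts2. Unit 1 stood at 3.59 and 3.86 FPKM in the 2 untreated cultures and at 1.85 and 2.28 in the 2 treated ones. Unit 2 stood at 2.13 and 2.90 FPKM untreated and at 1.202 and 1.54 treated.

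Groups did not overlap for 7 of 16 member units, against 19.7% of all units. The 6 that were lower after treatment were both Auts2 units, Cbx6, Kdm2b, Pcgf1 and Pcgf5 unit 1, and the 1 that was higher was L3mbtl2 unit 1. Each group held only 2 libraries, and none of these units had an unadjusted p under 0.05. The 2 Auts2 units followed each other (r = 0.84), so the units are not independent. Whether the count exceeds the background was not tested. Auts2 unit 1 differed by -0.63 (interval -1.38 to 0.13, unadjusted p = 0.0879) and unit 2 by -0.56 (interval -1.38 to 0.26, unadjusted p = 0.14), both with a limma adjusted p of 1.0. In WT primary cells Auts2 unit 1 lay at 2.03 to 5.28 FPKM and unit 2 at 1.02 to 1.31. On loss of CIZ1 in primary cells unit 1 differed by 0.14 (interval -0.51 to 0.80). The untreated E13.17 library serves in both the loss and the doxycycline comparison, so the values are not independent. The labels do not tell which untreated and treated libraries share an embryo, so the fit did not pair them. The margin of a member's 95% interval had a median of 0.79. A call by adjusted p needs a difference larger than this margin for a typical member. Pcgf3 unit 1 measured 19.6 and 25.0 FPKM untreated and 19.8 and 22.8 treated, which overlap. The fibroblast markers summed to 9357 and 10097 FPKM untreated and to 6205 and 7917 treated, and their part in the Auts2 values was not tested.

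The other genes of the Polycomb system were counted from lists of known subunits. Of the RING, BMI1, CBX, PHC and SCM subunits outside the members (13 genes), 18 units were tested, and 2 were higher and 2 lower in adapted WT cells. In null cells 4 were higher and 2 lower. Of all units 9.55% were called in WT and 4.86% in null cells. The called units of this list came from Bmi1 (PCGF4), Phc2, Phc3 and Rnf2, and the lower ones were units of Phc2. The more abundant Phc2 unit (XLOC_038565) went from 84.2 to 23.5 FPKM in WT cells (-1.90, limma adjusted p = 0.0305). In null cells it went from 80.5 to 20.6 FPKM (-1.94, limma adjusted p = 0.0235). The more abundant Bmi1 unit (XLOC_028628) went from 21.9 to 41.3 FPKM in WT cells (0.86 on the log2 scale, limma adjusted p = 0.0498), and the less abundant one (XLOC_031082) from 3.3 to 8.0 FPKM (1.07, limma adjusted p = 0.0199). The difference between Bmi1 and the member PCGF genes was not tested.

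Partners of the variant complexes (21 genes, 35 units tested) had 2 units higher and 1 lower in adapted WT cells and 1 higher in null cells. The shares of all units called were 9.55% in WT and 4.86% in null cells. The more abundant unit of Ep300 (XLOC_019292), the acetyltransferase known to join AUTS2 complexes, went from 7.2 to 20.5 FPKM in WT (1.403, SE 0.21, limma adjusted p = 0.0182) and from 6.5 to 20.3 in null cells (1.52, SE 0.19, adjusted p = 0.0215). Fbrs, an AUTS2 paralogue, had a minor unit (XLOC_054532) that went from 7.0 to 2.4 FPKM in WT cells (-1.28, adjusted p = 0.0351 by limma). Its main unit (AC136146.1,Fbrs, XLOC_051729) measured 33.0 FPKM in primary and 19.7 in adapted WT cells and was not called there. The unit of Cbx3 and Nfe2l3, of which CBX3 is an HP1 protein of the PCGF6 complex, went from 54.0 to 120.1 FPKM in WT cells (1.14, limma adjusted p = 0.0152).

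Averaged over both genotypes the partner list had 7 units higher and 7 lower of 35, where 32.2% of all units were called. Its median was 0.03, beside 0.18 for the members and -0.05 for all units. Of its called units, the main one of Ep300 (1.46), the minor one of Fbrs (-1.04) and the main one of Fbrsl1 (-0.80), another AUTS2 paralogue, were the furthest from 0. The main Fbrs unit differed by -0.76 and was called as well.

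The H2A deubiquitinases (8 units tested) gave 0 calls by limma in WT and 0 in null cells, with 2 and 1 units at an unadjusted p under 0.05. On average Usp21 (0.60) and Asxl2 (0.52) were higher and Usp16 (-0.57) lower. Of all units 9.55% were called in WT cells, 4.86% in null cells and 32.2% on average. An unadjusted p under 0.05 was reached by 30.6% of all units in WT and 29.3% in null cells. Of the PRC2 core (6 units), Ezh2 was called in WT cells (0.82, limma adjusted p = 0.0342), where its mean went from 13.5 to 24.6 FPKM. In null cells the mean of Ezh2 was 13.2 FPKM before and 11.9 after adaptation. There 0 units of this list were called by limma, with 1 at an unadjusted p under 0.05. On average Ezh1 (0.96) and Suz12 (0.53) were higher.

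At the Ink4/Arf locus 6 units were tested and 0 were called by limma in either genotype, with 2 units in WT and 3 in null cells at an unadjusted p under 0.05. Of all units 9.55% and 4.86% were called, and 30.6% and 29.3% had such a p. On average 2 units of Cdkn2b, a cyclin-dependent kinase inhibitor, were lower (-2.29 and -1.92, limma adjusted p = 0.00284 and 0.0115). In limma 5 of the 6 units had an unadjusted p under 0.05 for this average. For the same average 43.8% of all units had such a p, and 32.2% were called. No unit of Cdkn2a, the other gene of the locus, was called. Its most abundant unit (XLOC_039993) measured 95.7 to 114 FPKM in WT primary cells and 14.2 to 273 in adapted WT lines. In null cells it measured 82.2 to 176 FPKM before and 0 to 171 after adaptation, so its ranges overlapped in both genotypes. Loss of CIZ1, in primary or adapted cells, gave 0 calls by limma in all 5 lists, with at most 2 units of any list at an unadjusted p under 0.05. Of all units 0.00511% were called in primary and 0.00501% in adapted cells, and 6.26% and 4.02% had such a p.

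The units whose pattern over the 15 libraries was most like that of a member were looked up across all named units with a mean of at least 1 FPKM. Pcgf3 unit 1 was closest to Ipo7 (r = 0.94) and Chaf1b (r = 0.92), and Pcgf6 unit 1 to the unit of Glul and Mir8114 (r = 0.91). Auts2 unit 2 was closest to Atf4 (r = 0.93), Cbx6 to D2hgdh (r = 0.90), and Pcgf5 unit 2 to Lin7c (r = 0.90). Pcgf2 unit 2 had the canonical subunit Cbx8 as its second closest (r = 0.89), after Foxo4 (r = 0.89). The lowest top values were those of Kdm2b, with Gm6685 (r = 0.80), and Pcgf1, with Usp12 (r = 0.79). The points share libraries, groups and depth, and these are the highest of all values computed, so they are given as a description only.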

How the data were processed

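The members and the gene lists were chosen with earlier results of these data known. RNA was poly(A)-selected and made into libraries with a kit that, per the labels, is not described as strand-marking. According to the submitters' processing notes, reads were handled with cutadapt 1.8.3, HISAT2 2.0.5 and Cuffdiff 2.2.1. The deposited table holds FPKM values that the authors computed per transcription unit and library, normalized for length and depth, with no counts. A second deposited table of the authors' own comparisons was not used. Columns of per-sample values left unused were 0, and 0 pairs of libraries held identical values.

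Units with a mean of at least 1 FPKM over the libraries fitted were tested on log2(FPKM + 1) with limma 3.58.1 (R 4.3.3; lmFit, eBayes with trend), called at a Benjamini-Hochberg adjusted p under 0.05 over all units tested. The 95% intervals use limma's SE and degrees of freedom. Sums and ranges were computed in Python 3.11.15 (pandas 2.3.3, SciPy 1.17.1). The fit was checked on simulated data. The null primary group holds 2 libraries without the transgene and the untreated transgenic E13.17 library.

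Primary and adapted libraries of an embryo come from the same animal, by the per-embryo names in the study's tables, whose FPKM columns were matched to libraries by identical values; their deviations from group means correlated at 0.21, 0.15 and -0.01 in WT (E14.4, E13.1, E13.8) and at -0.02, 0.11 and 0.09 in null cells (E14.2, E13.15, E13.17). Without a count table, the precision of each FPKM is unknown beyond the spread between libraries. Named were all members, the units called in the lists (at most 6 per list and comparison, by size), and the 2 units most like each member. The average adaptation effect was added after the data were seen.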

Additional observations from a re-analysis of the deposited data

How the results depend on the processing

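The counts of member units called stayed at 0 under every alternative run for the comparisons of null with WT libraries, for the difference in adaptation between genotypes and for doxycycline. For adaptation of WT cells the count was 1 with array weights (Pcgf3 unit 1, limma adjusted p = 0.0448) and 0 to 1 when single libraries were left out, the 1 coming without the adapted E14.4 library (Pcgf3 unit 1, adjusted p = 0.0371). For null cells it was 1 in a single fit of all 12 libraries (Pcgf6 unit 2, adjusted p = 0.0438) and 0 to 1 with single libraries left out, the 1 coming without the adapted E13.15 library (Pcgf3 unit 1, adjusted p = 0.0480). For the average effect it was 1 to 3 with single libraries left out; it was 1 without the primary E13.1, the primary E13.8, the primary E14.2 or the adapted E14.2 library. With the embryo as a replicate block it was 0, 0 and 0 for WT, null and their difference, and 2 for the average, Pcgf6 unit 1 being the call that was lost. All units called fell from 1902 to 499 in WT and from 975 to 10 in null cells under that block, and to 62 and 25 at the lowest when 1 library was left out. Pcgf6 unit 1 was called without each of the 12 libraries, with an adjusted p of 0.0154 to 0.0470. Directions turned for values near 0: L3mbtl2 unit 1 was -0.022 with array weights; Kdm2b ran from -0.29 to 0.0072 with single libraries left out; the average effect on Auts2 unit 1 was -0.18 with a pseudocount of 0.1 and -0.22 to 0.36 with single libraries left out. In WT cells Auts2 unit 1 ran from -0.91 to 0.25 and unit 2 from -0.13 to 0.89. Where 1 library is left out of the 2 in a doxycycline group, the lone library is assumed to vary like the other group. The average count was 2 to 4 under the other alternatives. Summing all units of a gene, an alternative added after the data were seen, gave calls for the average effect on Pcgf6 (0.41) and Pcgf3 (-0.49) and ended that on Pcgf5 (0.79, limma adjusted p = 0.115). Depth in fragments is unknown, and groups of 3 limit every interval.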

Other observations

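With no filter on low values, 2 member units under 1 FPKM passed the test of the average adaptation effect: Pcgf5 unit 3 (0.62, limma adjusted p = 0.00514) and Pcgf6 unit 4 (0.40, limma adjusted p = 0.0313). The share of all units called without the filter is not given here, so these calls cannot be set against it. With the filter 32.2% of all units were called for this average. Each of the 2 units was higher in the adapted line of all 6 embryos. Pcgf6 unit 4 was at 0.18 to 0.36 FPKM in the 6 primary and 0.37 to 1.19 in the 6 adapted libraries. Pcgf6 unit 3 (XLOC_027386) did not follow the other units of its gene, with r = 0.26 against unit 1 and -0.08 against unit 2 over the 15 libraries.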
